A study of Drosophila melanogaster with 64 samples.

Results

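The seminal receptacle is the long, coiled tubule in which a Drosophila melanogaster female holds most of the sperm she stores. Its transcriptome at 6 h postmating was described here from 7 of the 64 RNA sequencing libraries of the study, namely the 4 seminal receptacle libraries labelled 6 h postmating and the 3 labelled unmated. They were chosen by their labels for tissue and time, and no measured value entered the choice. All females were of the wild-type laboratory strain LHM and aged 3-8 days, so that the labels separate the groups by mating status alone, besides the sequencing run. Each library was made from receptacles dissected from many females and pooled, and postmating tissue was taken only from females with sperm visible in this organ. The comparison asked which genes of the sperm storage tubule had changed level 6 h after females were paired with males. The 3 seminal receptacle libraries of 24 h postmating entered the same model, and the bursa, oviduct and spermathecae served to ask where the seminal receptacle differed.

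The seminal receptacle has an epithelial wall inside a sheath of muscle, and sperm enter and leave it through its opening at the junction of the bursa and the oviduct. In a mated female it receives sperm within the first hours and supplies them for fertilization over the following days. Female flies are also known to change hormone, immune and muscle activity in the reproductive tract after mating, in response to sperm, seminal fluid and the act of mating itself.

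The table held 17752 genes as read counts. Library totals ran from 23608897 to 26129687 in the unmated group and from 24091062 to 26168275 at 6 h. The libraries came from 2 sequencing runs: 1 unmated and 2 of the 6 h libraries from run 1, and 2 and 2 from run 2. The run stood apart in these data, with 2303 of 8141 tested genes differing between runs at an adjusted p of 0.05 or less, so it was a term of the model, and values below are given run 1 first. Summed transcripts of the mitochondrial genome reached 215000 and 243000 CPM in the 6 h libraries of run 2 and 65100 and 45200 CPM in those of run 1, against 94400 to 139000 CPM in the unmated group. CPM here are library-scaled read counts with TMM factors, edgeR's normalization by trimmed means. Summed fat body markers showed the same division, with 58300 and 27500 CPM in the 6 h libraries of run 2, 7420 and 10900 CPM in those of run 1, and 21200 to 40200 CPM in unmated libraries. The part of this division in the results below was not tested beyond the model term and the values within each run.

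The labels of tissue were checked against markers of what the organ holds. A list of 32 sarcomere genes, of which 28 were tested, summed to 22200 to 28300 CPM unmated and 35800 to 55300 CPM at 6 h. A list of epithelial polarity and junction genes summed to 2510 to 4060 CPM and 1950 to 4660 CPM. Among lists for cells outside the organ, sperm and testis transcripts summed to 4.79 to 6.74 CPM unmated and 4.78 to 6.63 CPM at 6 h, with 20 of 42 at 0 in all 10 libraries. Germline and eggshell genes summed to 70.0 to 111 CPM and gut genes to 5.15 to 12.9 CPM over the 7 libraries. A list of the spermathecal secretory gland summed to 2650 to 10200 CPM unmated and 2170 to 14200 CPM at 6 h. Fat body markers, given above, reached 58300 CPM at 6 h. Neuronal genes summed to 217 to 321 CPM unmated and 170 to 268 CPM at 6 h, and hemocyte genes to 5290 to 6310 CPM and 4160 to 6130 CPM. Whether the pools were separate collections of flies for every library is not given in the labels, so p-values measure the spread among these pools.

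At 6 h postmating, 302 of the 8141 genes tested (3.71%) differed from unmated at a Benjamini-Hochberg adjusted p of 0.05 or less in edgeR's quasi-likelihood test, which is what "called" means below. Of these, 207 (2.54% of genes tested) were upregulated and 95 (1.17%) were downregulated. Their median log2 changes were 1.22 and -1.27, against -0.019 for all tested genes, and 36 rose over 4-fold while 10 fell to under 1/4. Levels did not overlap between the 4 postmating and 3 unmated libraries for 175 of the upregulated and 87 of the downregulated genes. Among all tested genes, 7.96% lay above every unmated library in this way and 5.04% below. An unadjusted p under 0.05 was reached by 1594 of all tested genes (19.6%). These shares over all genes are the background for the counts in lists below. All 302 genes changed in the same direction within run 1 and within run 2. They were called from these same libraries with the run in the model, so this agreement is not separate evidence. In pooled tissue, fewer cells of a type and less RNA per cell cannot be told apart.

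The number of calls depended on which libraries were present. It was 55 without the unmated library of run 1, 117 and 79 without the first and second unmated library of run 2, 163 without the second 6 h library of run 1, and 134 and 78 without the first and second 6 h library of run 2. Without the first 6 h library of run 1 it was 439. No called gene that passed the filter in these fits changed direction there, though the fits share most libraries with the main fit. In all 7 of them 42 genes kept their call, 34 upregulated and 8 downregulated. Genes described below as having kept their call throughout belong to these 42, and any other called gene lost its call in at least 1 of the 7 fits. Run 2 alone gave 5 calls and run 1 alone, with its single unmated library taken to vary like the others, gave 146, of which 58 were higher and 88 lower. The stricter Bonferroni-adjusted p of 0.01 used in the study's methods gave 9, and a model without the run gave 78.

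**Figure D1:**
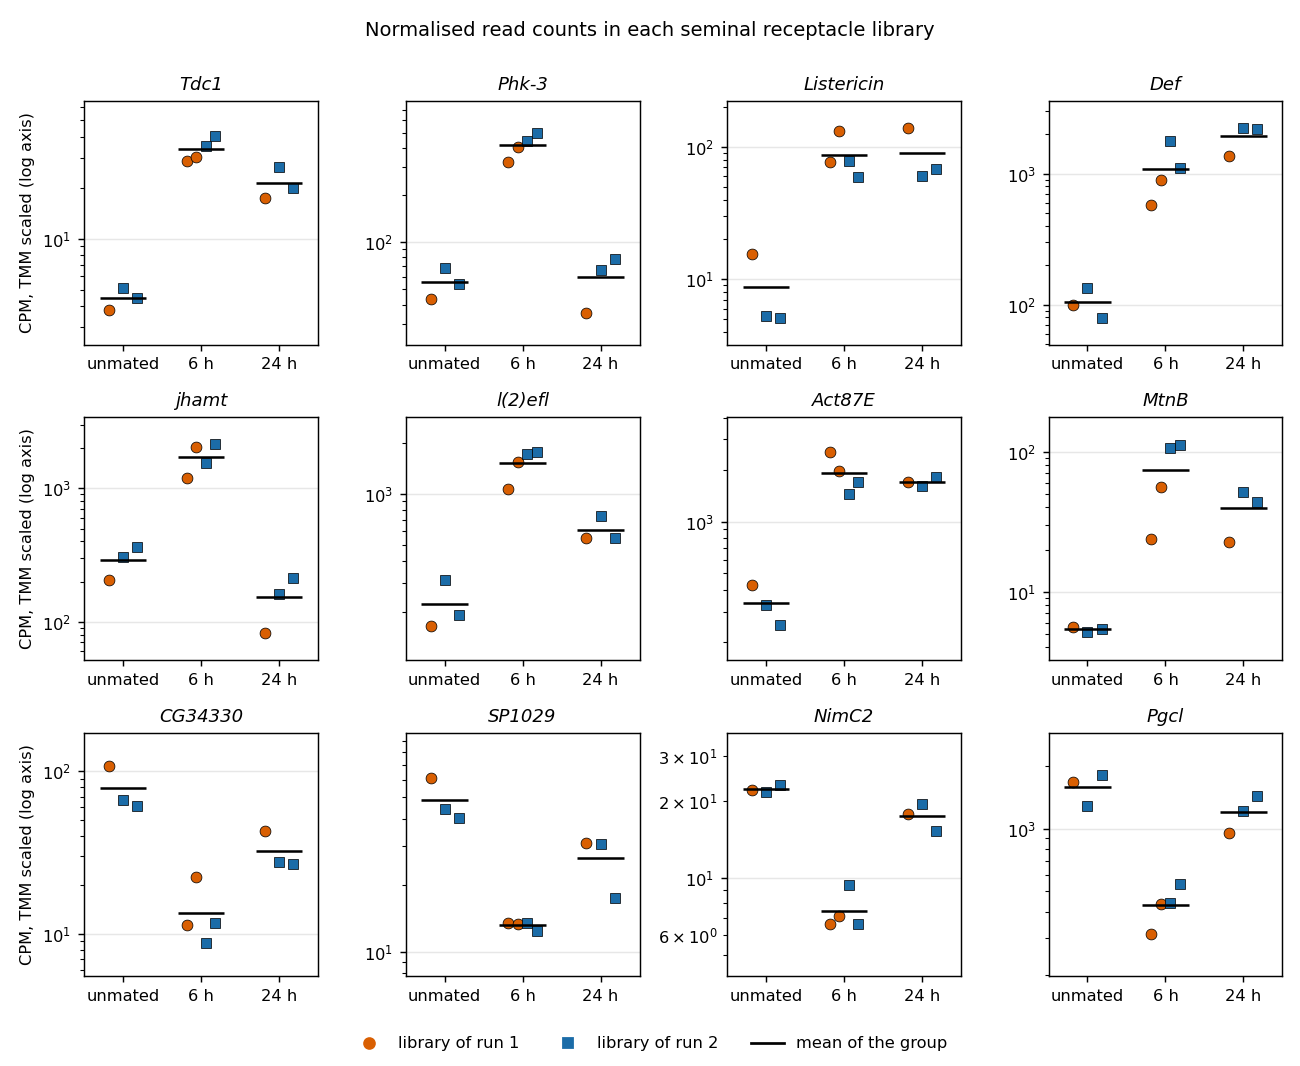
Each panel plots 1 gene, with CPM scaled by TMM on a log axis for every seminal receptacle library (circles run 1, squares run 2) and a line at the mean of each group. In all 12 genes the 4 libraries of 6 h lie on 1 side of the 3 unmated libraries, and at 24 h Phk-3 and jhamt are near or below the unmated range while Def and Listericin are above it.

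The smallest p-value belonged to Tdc1, which encodes the tyrosine decarboxylase that makes tyramine outside neurons. It gave 3.78, 5.11 and 4.43 CPM in unmated libraries and 28.7, 30.5, 35.5 and 40.7 CPM at 6 h. Every postmating library thus exceeded every unmated library by a wide margin, with a log2 change of 2.99 ± 0.18 (SE; 7.94-fold; adjusted p = 0.000153). Its exons overlap those of Rpp25 on the other strand, which was not called, at a log2 change of 0.59. The second was Phk-3, a member of the insect family of small soluble chemosensory-type proteins, at 43.2, 68.7 and 54.3 CPM unmated and 327, 404, 443 and 497 CPM at 6 h. Its levels did not overlap either, and the log2 change was 3.03 ± 0.22 (adjusted p = 0.000506).

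CG4269, to which no role is given here, was also among the smallest p-values. It moved from 1.87, 5.97 and 4.10 CPM to 14, 17.9, 48.4 and 35.4 CPM (log2 change 3.06 ± 0.26). In CG4269 the 6 h libraries of run 2 were higher than those of run 1, as was the case between runs in unmated tissue. MtnB, a metallothionein, a class of small proteins that bind metal ions, stood at 5.54, 5.15 and 5.40 CPM unmated and at 23.6, 56.0, 107 and 111 CPM at 6 h (3.73 ± 0.41, adjusted p = 0.00244). The unmated libraries barely varied, whereas the 6 h libraries of run 2 were higher than those of run 1. The remaining metallothioneins tested, 2 of 3, were not called. GstD5, a glutathione S-transferase, was called at low counts, with 0, 0.191 and 0.325 CPM unmated and 0.802, 1.33, 3.19 and 4.22 CPM at 6 h.

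Small heat shock proteins hold unfolding proteins in solution, and 3 of their genes rose with no overlap between groups. The first, l(2)efl, had 167, 309 and 193 CPM unmated and 1070, 1540, 1720 and 1770 CPM at 6 h (log2 change 2.85 ± 0.25, adjusted p = 0.000782). The second, CG14207, had 755, 1230 and 882 CPM and 1830, 2110, 3230 and 3690 CPM (1.58 ± 0.19, adjusted p = 0.00331). The third, CG4461, was picked after its values had been seen and had 1.44, 3.39 and 1.5 CPM unmated and 4.01, 6.79, 15.9 and 11.3 CPM at 6 h (2.24 ± 0.36, adjusted p = 0.0125), with its call lost without the unmated library of run 1. In the list of heat shock proteins l(2)efl was the 1 called gene among 18 tested, of which 7 had a positive and 11 a negative log2 change. The median log2 change of that list was -0.51, whereas its summed levels were 3730 to 4560 CPM unmated and 5320 to 6570 CPM at 6 h. Without the run in the model that median was -0.04, and Hsp83 was not called. CG14207 and CG4461 were not part of that list. Tdc1, Phk-3, CG4269, MtnB, l(2)efl and CG14207 kept their call throughout.

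Among genes of hormone metabolism, jhamt rose and Jheh2 fell. The enzyme of jhamt, juvenile hormone acid methyltransferase, carries out a late step of juvenile hormone synthesis, and that of Jheh2 is an epoxide hydrolase that degrades the hormone. jhamt was found at 207, 307 and 364 CPM unmated and at 1190, 2030, 1550 and 2150 CPM at 6 h (log2 change 2.71 ± 0.31, adjusted p = 0.00248), with no overlap. Jheh2 was found at 1290, 885 and 1080 CPM unmated and at 456, 735, 270 and 412 CPM (-1.37 ± 0.24, adjusted p = 0.0164), again with no overlap. The call of jhamt was kept throughout, while that of Jheh2 was lost without any of the 3 unmated libraries or without either 6 h library of run 2. Of the 21 tested genes of the ecdysone and juvenile hormone list, those 2 and ImpE3 (-1.50) were called, and the median log2 change was -0.39. The genes jhamt (2L:16365903-16367039) and Send2 (2L:14345915-14346688) lie on chromosome arm 2L, MtnB (3R:20503102-20503746) and Act87E (3R:13425983-13428375) on 3R, and CG34330 (X:19068275-19068973) and Pgcl (X:436139-437448) on X of the BDGP6.54 annotation.

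Antimicrobial peptides, which insects secrete against bacteria and fungi, were upregulated in 7 of 18 tested members, beside 2.54% of all tested genes. Of the 18, 17 had a positive log2 change. The list's median log2 change was 1.33. Def, or Defensin, rose from 99.4, 134 and 79.3 CPM unmated to 574, 902, 1780 and 1100 CPM at 6 h (3.40 ± 0.33, adjusted p = 0.00126). Listericin rose from 15.6, 5.25 and 5.12 CPM to 76.8, 133, 78.2 and 59.7 CPM (3.32 ± 0.29, adjusted p = 0.000782). In both, the lowest postmating library was several times above the highest unmated library. The attacins AttA (2.52), AttB (2.38) and AttD (2.80) and the cecropins CecA1 (2.43) and CecA2 (1.37) were the other members called, all of them log2 changes.

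Reads of AttA and AttB, and of CecA1 and CecA2, come from near-identical gene copies and may have been divided between them in counting. AttA gave 11.2, 22.2 and 10.3 CPM unmated and 45.6, 57.0, 129 and 85.4 CPM at 6 h. CecA1 gave 8.75, 20.9 and 17.3 CPM unmated and 33.3, 46.2, 140 and 85.5 CPM at 6 h. In both, the postmating libraries of run 2 were the highest, and the libraries of run 1 were also above every unmated library. CecA2 overlapped between groups and lost its call in 6 of the 7 fits without 1 library.

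The remaining antimicrobial peptides were not called. Drs, or Drosomycin, made up most of the summed CPM of this list and did not follow the others. It stood at 107000, 167000 and 151000 CPM unmated and at 59400, 82400, 124000 and 135000 CPM at 6 h (log2 change -0.43, adjusted p = 0.268). DptB, a diptericin, was split by run, with 52.4, 71.5 and 52.9 CPM unmated, 36.1 and 62.3 CPM at 6 h in run 1, and 402 and 221 CPM at 6 h in run 2 (adjusted p = 0.199). Mtk, or Metchnikowin, had a log2 change of 1.83 (adjusted p = 0.0705). The 12 bomanins, short peptides induced through the Toll pathway, held no called gene, with 3 at an unadjusted p under 0.05, and had a median log2 change of 0.56. Summed bomanins also followed the fat body markers by library, with 2990 and 1950 CPM in the 6 h libraries of run 2, 286 and 468 CPM in those of run 1 and 493 to 1460 CPM unmated, and the part of fat body RNA in the immune values was not tested.

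Peptidoglycan recognition proteins, which bind the bacterial cell wall, were upregulated in 4 of 10 tested members, beside 2.54% of all genes (median log2 change 0.70). The list did not move 1 way: 8 members had a positive and 2 a negative log2 change. Those 2 were not called but had an unadjusted p under 0.05. In this list 2 members lay below every unmated library, beside 5.04% of all tested genes. PGRP-SA, the circulating receptor upstream of Toll, moved from 10.7, 21.0 and 15.3 CPM to 50, 73.6, 72.2 and 53.7 CPM (2.1). PGRP-LB, an amidase that dampens Imd signalling, moved from 38.3, 46.9 and 36.6 CPM to 120, 136, 168 and 118 CPM (1.77). These were level between runs at 6 h and apart from unmated in every library. PGRP-SC2, another amidase (2.64), was higher in run 2 at 6 h, at 40.8 and 23.5 CPM, than in run 1, at 5.73 and 7.77 CPM. Its unmated libraries had 1.66, 3.87 and 3.90 CPM. In a joint fit with the spermathecae it averaged 2.55 CPM unmated and 15.6 CPM at 6 h in the seminal receptacle. In the spermathecae it averaged 3.94 and 288 CPM. Whether RNA of spermathecal origin gave part of its 6 h counts was not tested. PGRP-SD (1.80) completed the called members. None of the 28 tested genes that carry the Toll and Imd signal inside the cell was called, and the median log2 change was -0.03. An unadjusted p under 0.05 was found in 3, all 3 lower, beside 19.6% of all tested genes. DESeq2 called 2 of the 28 lower and limma-voom 1. Def, Listericin, AttA, AttB, CecA1, PGRP-SA, PGRP-SC2 and PGRP-LB kept their call throughout, and the number of antimicrobial peptides called ran from 5 to 10 in those fits.

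Genes of the nucleolus, where ribosomal RNA is made and joined to proteins, were upregulated in 22 of 53 tested members. Over all tested genes 2.54% were upregulated and 7.96% lay above every unmated library. In the list 37 lay above every unmated library, 49 had a positive log2 change, and the median log2 change was 0.81. Fib, fibrillarin, the methyltransferase of box C/D particles, rose from 13.1, 26.2 and 15.7 CPM to 39.9, 48.5, 72.9 and 59.3 CPM (1.66 ± 0.28, adjusted p = 0.0141). Its partners in that particle followed: nop5 moved from 11.2, 18.8 and 13.7 CPM to 41.8, 45.7, 48.9 and 39.7 CPM (1.62), and Nop56 from 22.4, 38.1 and 27.3 CPM to 57.9, 73.9, 85.0 and 80.3 CPM (1.38). NHP2, of the particles that make pseudouridine, was also called (1.18). The groups did not overlap for any of Fib, nop5 and Nop56.

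The number of nucleolar genes called was not stable. It was 0, 6 and 0 without each unmated library in turn (run 1, then the first and second of run 2), 26, 8, 3 and 1 without each 6 h library in turn, 3 without the run in the model and 0 in run 2 alone. With library size alone in place of TMM it was 11, and with all genes of at least 1 count tested it was 12. The median log2 change stayed at 0.75 in run 2 alone and 0.81 with library size alone.

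Other genes of ribosome production moved to different extents. All 18 tested subunits of RNA polymerases I and III, which transcribe ribosomal and transfer RNA, had positive log2 changes, with a median of 0.61, and Polr1B (1.09) and Polr1H (1.52) were called. The 20 cytosolic aminoacyl-tRNA synthetases, which charge transfer RNA, had a median of 0.37 and no called member, with 9 at an unadjusted p under 0.05 and 4 called by DESeq2. The cytosolic ribosomal proteins stood still by comparison: their median was -0.03 over 85 genes and the 1 called gene was RpLP0-like (1.29), a nucleolar relative of a ribosomal protein. The 33 proteasome subunits had a median of 0.16, with no called member and none at an unadjusted p under 0.05.

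Host genes of small nucleolar RNAs, whose introns carry the RNAs that guide modification of ribosomal RNA, formed a family put together after values had been seen and therefore not tested as a set. Of 7 in the table, 6 were tested and 5 were called higher, with a median log2 change of 1.58. Uhg2 moved from 1.73, 4.49 and 2.19 CPM to 6.19, 7.83, 12.5 and 12.9 CPM (1.95). Uhg1 moved from 3.71, 7.16 and 5.04 CPM to 12.3, 7.36, 25.5 and 34.0 CPM (1.94), where the postmating libraries of run 2 were the highest. The count fell to 0 without the second unmated library or the second 6 h library of run 2 to 1 without either of the other unmated libraries, and to 3 without the first 6 h library of run 2. Several of these genes overlap others on the opposite strand, and whether strand was used in counting is not given in the sources used here.

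The cytosolic chaperonin CCT is a ring of 8 different subunits that folds actin and tubulin, and prefoldin is the 6-subunit complex that hands these proteins to it. These families were also formed after values had been seen. All 8 CCT subunits were called higher, and each lay above every unmated library in all 4 libraries of 6 h. Their log2 changes were close together, from 1.04 for CCT8 to 1.39 for CCT5, with a median of 1.20. CCT5 read 77.1, 117 and 93.2 CPM unmated and 208, 288, 251 and 261 CPM at 6 h (adjusted p = 0.0145). CCT3 read 87.1, 106 and 93.8 CPM unmated and 239, 334, 201 and 229 CPM at 6 h (1.31). Of the prefoldin subunits, 5 of 6 were called, with a median of 1.21, and Pfdn6 was not (1.01, adjusted p = 0.0819). In the prefoldin subunits other than mgr the 6 h libraries of run 2 were the higher: Pfdn1 had 25.5, 56.6 and 35.8 CPM unmated, 44.6 and 57.2 CPM in run 1 and 131 and 160 CPM in run 2, so that only mgr, the prefoldin subunit 3 gene, of the 6 was apart from unmated in every library.

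**Figure D2:**
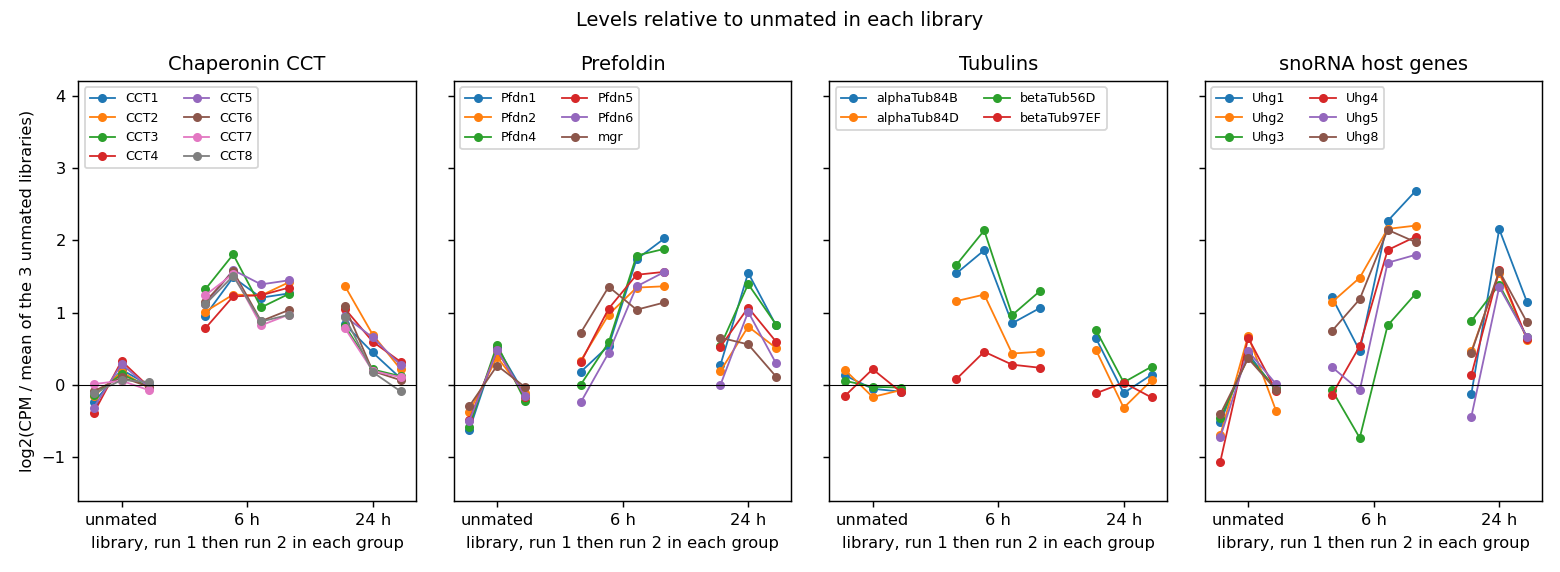
For each gene the log2 ratio of its CPM to the mean of the 3 unmated libraries is drawn in every library, run 1 before run 2, with lines joining the libraries of a group for the eye. CCT subunits at 6 h lie together near a log2 ratio of 1 to 2 in all 4 libraries, whereas 5 of 6 prefoldin subunits, all but mgr, and the small nucleolar RNA host genes are higher in run 2 (alphaTub67C, at low level, is left out).

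Tubulins, the subunits of microtubules, were another family formed after values had been seen. Upregulated were 3 of 5 tested genes of the family, alphaTub84B, alphaTub84D and betaTub56D, with a median log2 change of 0.73 over the 5. alphaTub84B read 923, 812 and 790 CPM unmated and 2450, 3060, 1520 and 1760 CPM at 6 h (1.24 ± 0.20, adjusted p = 0.0124), though its reads may be shared with the near-identical alphaTub84D. betaTub56D read 656, 619 and 615 CPM unmated and 1990, 2770, 1230 and 1550 CPM at 6 h (1.43 ± 0.22, adjusted p = 0.0119). Here the postmating libraries of run 1 were higher than those of run 2, in contrast to Pfdn1, and all were above unmated. The calls of CCT fell from 8 to 0 without the unmated library of run 1, the second unmated library of run 2 or the second 6 h library of run 2, and to 3 without the other unmated library, the second 6 h library of run 1 or the first of run 2. Prefoldin had 0 calls without any of the 3 unmated libraries or either 6 h library of run 2, 1 without the second 6 h library of run 1 and 6 without the first. Tubulins had 0 without the unmated library of run 1 or the second 6 h library of run 2 and 2 without any of the others. The call of alphaTub84D was lost in all 7 fits without 1 library.

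The muscle actin genes Act87E and Act88F rose. Act87E moved from 428, 327 and 250 CPM unmated to 2530, 1960, 1440 and 1690 CPM at 6 h (2.44 ± 0.22, adjusted p = 0.000782). Act88F, the actin of flight muscle, moved from 2.23, 1.48 and 1.58 CPM to 15.6, 11, 7.20 and 7.27 CPM (2.40). Both were above unmated in every library, highest in run 1, and kept their call throughout. Act88F stood far below Act87E and moved with it between groups. Whether its counts were reads of other, similar actin genes was not tested. Act57B, another muscle actin gene, was not called (0.84, adjusted p = 0.0515). A noncoding transcript that overlaps Act87E on the other strand, lncRNA:CR45591, was called higher as well (4.12).

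Beside these actins, the sarcomere list held the called genes Mlp60A and Mp20. Mlp60A, a LIM-domain protein of the muscle Z-disc, moved from 1010, 1900 and 894 CPM to 1980, 3120, 4460 and 5290 CPM (1.6). Mp20, a calponin-like muscle protein, moved from 1950, 3690 and 2050 CPM to 3620, 4390, 8990 and 10300 CPM (1.45), with 1 postmating library of run 1 below the highest unmated library. Both calls were lost in 5 of the 7 fits without 1 library. Of the 28 sarcomere genes tested, 4 were called, 23 had a positive log2 change and the median was 0.38, and Mhc, the muscle myosin heavy chain, was not called. Over those fits the number called ran from 2 to 6: it was 2 without the unmated library of run 1, the second unmated library of run 2 or either 6 h library of run 2, and 6 without the first 6 h library of run 1. None of 32 tested junction genes was called, at a median of -0.23, with 2 at an unadjusted p under 0.05 and 1 called by DESeq2.

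**Figure D3:**
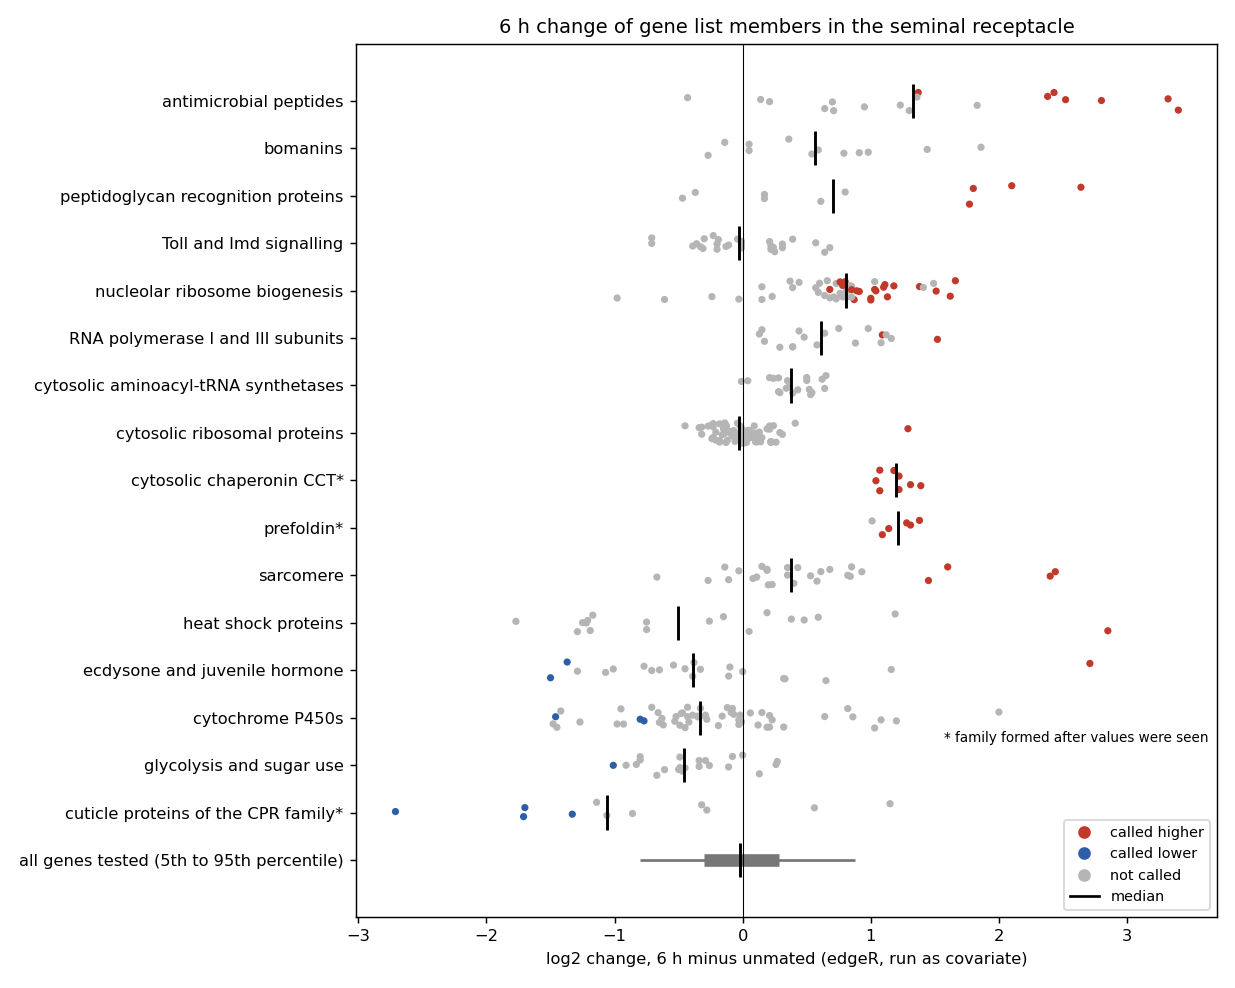
Each point is the log2 change of 1 gene from unmated to 6 h in the edgeR model with the run, by list, with called genes coloured and the median as a black bar, and the bottom line spans the 5th to 95th percentile of all tested genes. CCT and prefoldin subunits lie to the right of 0 without exception, ribosomal proteins centre on 0, and the called cuticle proteins, cytochrome P450s and sugar enzymes lie to the left.

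The downregulated gene with the smallest p-value was CG34330, which has no role given here. It stood at 108, 66.4 and 60.9 CPM unmated and at 11.3, 22.4, 8.79 and 11.6 CPM at 6 h, so that every postmating library was below every unmated library (log2 change -2.65 ± 0.23, adjusted p = 0.000782). It was the 1 downregulated gene that passed the Bonferroni threshold. SP1029, a membrane aminopeptidase, went from 61.1, 44.0 and 40.4 CPM to 13.5, 13.4, 13.5 and 12.4 CPM (-1.90 ± 0.21, adjusted p = 0.00244). NimC2, of the Nimrod family of hemocyte receptors, went from 22.1, 21.8 and 23.2 CPM to 6.59, 7.08, 9.37 and 6.60 CPM (-1.58 ± 0.18, adjusted p = 0.00248). In both the levels within each group were tight and the groups were well apart.

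NimC2 was the 1 called gene among 16 hemocyte markers tested, of which 13 had a negative log2 change, with a median of -0.25. Pgcl, a pepsinogen-like aspartic protease, had among the largest falls in CPM, from 1670, 1290 and 1800 CPM to 314, 435, 438 and 544 CPM (-1.85 ± 0.22, adjusted p = 0.00301). Sclp went from 149, 226 and 205 CPM to 33.3, 30.3, 81.8 and 95.3 CPM (-1.67 ± 0.21), and CG6484 from 51.1, 55.6 and 46.1 CPM to 11, 13.4, 22.4 and 19.1 CPM (-1.61 ± 0.19). In these 2 the postmating libraries of run 1 were the lowest. CG11044 (-1.39) was among the smallest p-values too, and CG34330, SP1029, NimC2, CG11044, Pgcl, CG6484 and Sclp kept their call throughout.

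The other large falls without overlap were in CG13856 (-2.45), CG18268 (-1.92), CG3649 (-1.79), CG10553 (-1.70), CG3823 (-1.67), CG8841 (-1.6) and FBgn0019643 (-1.62), an identifier absent from the annotation. Each of them lost its call without the unmated library of run 1. CG13856 and CG18268 also lost it without the second unmated library or the second 6 h library of run 2, and CG10553 without that unmated library, the second 6 h library of run 1 or the first of run 2. CG8841, for example, was at 48.2, 30.4 and 35.2 CPM unmated and at 19.2, 15.9, 8.94 and 11.7 CPM at 6 h.

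Treh and ATPsynC were among the largest falls in CPM. Treh encodes trehalase, which splits the blood sugar trehalose, and went from 1870, 1230 and 1570 CPM to 963, 1020, 599 and 724 CPM (-1.01 ± 0.19, adjusted p = 0.0232). ATPsynC, subunit c of ATP synthase, went from 1210, 809 and 1200 CPM to 410, 399, 655 and 621 CPM (-1.04 ± 0.23, adjusted p = 0.0363). Both were lower in every postmating library, but each lost its call in 6 of the 7 fits without 1 library. CG6055 (-1.03) was as dependent on single libraries. Of the 22 genes of glycolysis and sugar use, Treh was the 1 called, 19 had a negative log2 change and the median was -0.46. In this list 8 lay below every unmated library, beside 5.04% of all tested genes.

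Cuticle proteins of the CPR family, which bind chitin, were brought together after values had been seen. Of 70 in the table, 11 were tested and 4 were called lower, with a median log2 change of -1.06. Cpr49Ah was at 563, 507 and 833 CPM unmated and 268, 230, 258 and 234 CPM at 6 h (-1.33), with no overlap. Cpr56F (-1.71), Cpr92A (-1.70) and Cpr65Au (-2.71, overlapping between groups) were the others. The count was 0 without the unmated library of run 1, 2 without the first and 1 without the second unmated library of run 2, 2 without the second 6 h library of run 1 or the first of run 2, and 1 without the second 6 h library of run 2.

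Cytochrome P450s, oxidases of hormones, lipids and foreign compounds, were called lower in 3 of 56 tested (-0.77 for Cyp6a23, -1.46 for Cyp4ac3 and -0.80 for Cyp12a5). None was called higher, though DESeq2 called 1 higher. An unadjusted p under 0.05 was found in 16 lower and 5 higher members. A negative log2 change was found in 41 of the 56, with a median of -0.33 over all. In this list 14 lay below every unmated library, beside 5.04% of all tested genes. Each of the 3 lower calls was lost in 6 of the 7 fits without 1 library and was kept without the first 6 h library of run 1. Over all tested genes 1.17% were called lower. The serpins Spn55B (1.28) and Spn27A (1.02), inhibitors of serine proteases, were called of 13 tested. Tetraspanins, membrane proteins grouped after values had been seen, were called in both directions: Tsp42El moved from 53.2, 89.2 and 64.0 CPM to 135, 226, 191 and 211 CPM (1.55), Tsp42Ei (1.04) and Tsp42Eh (0.93) also rose, and Tsp74F went from 85.5, 62.0 and 63.2 CPM to 33.1, 45, 26.9 and 28.5 CPM (-1.14). The number of tetraspanins called higher was 0, 1 and 1 without each unmated library in turn and 5, 2, 1 and 1 without each 6 h library in turn. Among 14 odorant binding proteins tested, Obp56e was called: it had 0 counts in the 3 unmated libraries and 261 counts over the 4 libraries of 6 h, 2.42 CPM pooled, which is at least 59.1-fold higher than the floor of 3 counts over the unmated group. The first 6 h library of run 2 held 129 of these counts. Without it the bound was 37-fold, and the call of Obp56e was lost in 4 of the 7 fits without 1 library.

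Several proteases of the spermathecal secretory cells were among the largest changes in the seminal receptacle. Send2, a spermathecal endopeptidase, stood at 13.4, 120 and 60.2 CPM unmated and at 335, 582, 2770 and 1670 CPM at 6 h (log2 change 4.81 ± 0.46, adjusted p = 0.00126). The serine protease CG17234 stood at 21.6, 184 and 94.9 CPM unmated and at 266, 338, 1760 and 1020 CPM at 6 h (3.55 ± 0.41, adjusted p = 0.00277). The related Send1 moved the other way, from 557, 3460 and 1890 CPM to 39.1, 112, 593 and 499 CPM (-2.54 ± 0.36, adjusted p = 0.00824), and its highest postmating library was above its lowest unmated library. In all 3 the libraries of run 2 were higher than those of run 1 in the same group. The aspartic protease CG17134 (4.47) was higher in run 2 at 6 h in the same way. Of the 14 tested genes of the spermathecal secretory gland list, 2 were called higher and 1 lower.

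Spermathecae expressed Send1, Send2, CG17234 and CG17134 at far higher levels, and the values of both organs are therefore given together. Over the 15 genes of the spermathecal secretory gland list, summed levels were 2650, 10200 and 5900 CPM in unmated and 2170, 3570, 14200 and 9510 CPM in 6 h seminal receptacle libraries. In a joint fit Send2 averaged 52.5 CPM unmated and 1070 CPM at 6 h in the seminal receptacle, which was 3.43% and 2.47% of the spermathecal level at the same time. Send1 was at 2.33% and 2.54% of that level, CG17234 at 3.83% and 3.01%, and CG31681, which was not called, at 2.70% and 2.59%. The change from unmated to 6 h did not differ detectably between the organs for any of them, the difference for Send2 being -0.08 ± 0.46 on the log2 scale (adjusted p = 0.99). Whether seminal receptacle cells or RNA of spermathecal origin gave these counts was not tested. Send2 and CG17234 kept their call throughout, Send1 lost it without the unmated library of run 1, and CG17134 lost it in 5 of the 7 fits without 1 library.

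CG34265, to which no role is given here, was also among the largest rises. It stood at 6.73, 17.6 and 11.6 CPM unmated and at 35.6, 27.9, 184 and 148 CPM at 6 h (log2 change 2.98 ± 0.43, adjusted p = 0.00894), with run 2 higher at 6 h, and kept its call throughout. Unlike the proteases above it averaged less in the spermathecae, at 7.38 CPM unmated and 35.4 CPM at 6 h, than in the seminal receptacle, at 9.72 and 79.5 CPM in the same fit, and it averaged 214 and 2390 CPM in the bursa. Its change did not differ detectably from that in either organ (adjusted p = 0.706 and 0.717).

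Of 12 octopamine, tyramine and dopamine receptors 3 passed the filter for testing, and of 41 peptide hormone receptors 9 did. None of those tested was called, and the others could not be. SPR, the sex peptide receptor, had a log2 change of -0.53 (adjusted p = 0.386), Oamb, an octopamine receptor needed for ovulation, -0.81 (adjusted p = 0.182), and Pdfr -0.92 (adjusted p = 0.0662). The JAK/STAT list of 14 tested genes held none called (3 at an unadjusted p under 0.05, 2 by DESeq2), at a median of 0.60, although Socs36E, a target of that pathway, was near the threshold (0.74, adjusted p = 0.0517). No gene was called among 11 of the circadian clock, 22 of ion and water transport, 11 scavenger receptors or 45 of the secretory pathway and unfolded protein response. At an unadjusted p under 0.05 these 4 lists had 3, 5, 1 and 6 genes, beside 19.6% of all tested genes, and DESeq2 called 1, 2, 1 and 3. Among 16 JNK and immediate early genes wgn, a receptor of the tumour necrosis factor family, fell (-0.91), and among 7 neuronal genes nSyb, the synaptobrevin of synaptic vesicles, fell (-1.06) with overlap between groups.

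Few genes known from male reproductive tissue reached the level for testing. Of 42 sperm and testis genes 2 reached the level for testing, and of 43 male accessory gland and ejaculatory genes 4 did. None of these was called, 1 accessory gland gene had an unadjusted p under 0.05, and DESeq2 called 2. The latter list summed to 283 to 341 CPM unmated and 377 to 504 CPM at 6 h, which did not overlap, but members such as EbpIII, Spn77Ba and Est-6 are also expressed in females and were present in unmated tissue. Acp53C14a, an accessory gland protein gene, was at 0 CPM in all 3 unmated libraries and read 2.58, 0, 14.1 and 0 CPM at 6 h (adjusted p = 0.258). The study reported genes of known seminal fluid proteins among those specific to the parovaria of females. Whether these counts came from the male or from female tissue was not tested.

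At 24 h postmating 12 of 8141 genes (0.147%) were called against the same unmated libraries, all of them higher, and 457 had an unadjusted p under 0.05. The 24 h libraries held 26097684, 12177864 and 14132323 counts. Germline and eggshell genes summed to 359, 99.8 and 116 CPM in them. The part of depth and of germline RNA in the number of calls at 24 h was not tested. The 6 h and 24 h comparisons share their unmated libraries, so the changes are given side by side. Genes called higher at 6 h had a median log2 change of 1.22 at 6 h and 0.39 at 24 h, and genes called lower had -1.27 and -0.35. Def had 3.40 at 6 h and 4.16 at 24 h, with 1370, 2240 and 2210 CPM at 24 h, and Listericin had 3.32 and 3.44, so that neither had moved back towards unmated. Act87E also kept its level, at 1700, 1610 and 1810 CPM at 24 h, and Tdc1 stood at 17.3, 26.5 and 20 CPM, between the other groups. Phk-3, at 35.5, 66.9 and 78.0 CPM, overlapped its unmated range of 43.2 to 68.7 CPM, and jhamt was at 81.9, 162 and 213 CPM, against 207 to 364 CPM unmated (-0.98, not called). CCT subunits had a median of 0.46 at 24 h, nucleolar genes 0.23 and sarcomere genes 0.79. A model without the run gave 4 calls at 24 h.

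**Figure D4:**
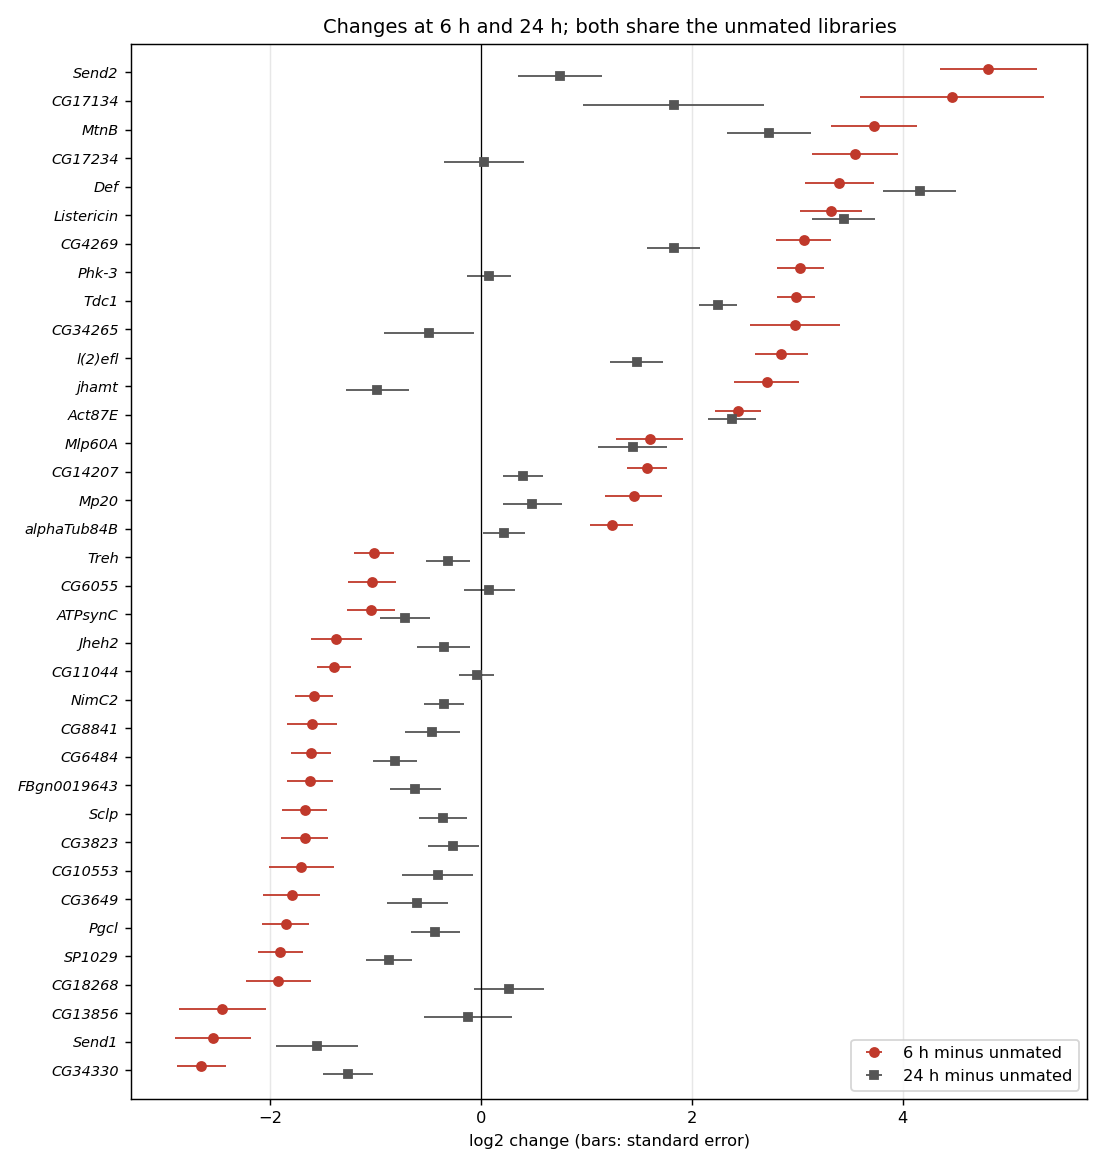
The log2 change from unmated at 6 h (circles) and 24 h (squares) is drawn with its standard error for genes named by size of change or p-value. Listericin and Act87E sit at about the same place at both times and Def lies higher at 24 h (4.16 against 3.40), whereas Phk-3, CG17234 and the falling genes CG18268 and CG11044 are near 0 at 24 h.

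The bursa, the oviduct and the spermathecae were compared with the seminal receptacle by testing the difference of their 6 h changes. Genes called higher in the seminal receptacle had a median log2 change of 1.55 in the bursa, 1.06 in the oviduct and 0.35 in the spermathecae. Genes called lower had medians of -1.30, -0.87 and -0.62. The difference of the change was called for 119 genes against the bursa (1.41% of 8424 tested), for 13 against the oviduct (0.156% of 8309) and for 117 against the spermathecae (1.4% of 8330). In the spermathecal comparison 76 of the 117 changed more upward in the seminal receptacle, whereas 82 of the 119 in the bursa comparison changed more upward in the bursa. The oviduct had 2 libraries at 6 h and 3 unmated, fewer than the 4 and 4 of the bursa and spermathecae. Both oviduct libraries of 6 h came from run 2, as did 2 of its 3 unmated libraries, so that its 6 h group held no library of run 1.

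Ddc, dopa decarboxylase, which makes dopamine and serotonin and supplies the cuticle with catecholamines, differed from both epithelial neighbours. It averaged 58.2 CPM unmated and 35.0 CPM at 6 h in the seminal receptacle, and 9.90 and 35.8 CPM in the bursa, a difference of -2.56 ± 0.24 on the log2 scale (adjusted p = 3.97e-05). Against the oviduct, where it went from 2.23 to 18.8 CPM, the difference was -3.69 ± 0.29 (adjusted p = 8.08e-05). Its neighbour in function amd went from 0.534 to 4.06 CPM in the bursa and from 4.43 to 3.49 CPM in the seminal receptacle (-3.27). CG6891 (-2.36), CG12268 (-1.92) and CG14397 (-4.29) were the other smallest p-values against the bursa.

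Act87E and Act88F rose more in the seminal receptacle than in either epithelial neighbour. They were the 2 sarcomere genes with a called difference, of 28 tested against the oviduct and 29 against the bursa. Over all genes tested the shares with a called difference were 0.156% and 1.41%. Act87E averaged 318 CPM unmated and 1830 CPM at 6 h in the seminal receptacle in the fit with the oviduct, where it averaged 1080 and 1170 CPM, and the difference was 2.09 ± 0.28 (adjusted p = 0.00919). Against the bursa the difference was 1.18 ± 0.27 (adjusted p = 0.0343). Act88F gave 2.20 and 1.48 in the same comparisons, with the same limit on the source of its reads. Against the spermathecae neither difference was called (0.98, adjusted p = 0.0934, for Act87E and 1.0, adjusted p = 0.873, for Act88F). In unmated tissue Act87E averaged 291 CPM in the seminal receptacle and 887 CPM in the bursa in their joint fit. The gene tfc averaged 2.15 and 5.40 CPM in the seminal receptacle and 35.1 and 11.8 CPM in the oviduct (2.88 ± 0.42). The gene hdly went from 151 to 92.2 CPM in the seminal receptacle and from 192 to 840 CPM in the oviduct (-2.48), and CG10337 from 23.0 to 41.8 CPM and from 7.8 to 76.7 CPM (-2.20).

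Of the 18 antimicrobial peptides tested, 6 changed more upward in the bursa than in the seminal receptacle and none the other way. Over all genes, 82 of 8424 tested changed more upward in the bursa. AttA and AttB, and CecA1 and CecA2, were among the 6, and their reads may have been divided between near-identical copies. AttA went from 4.57 to 244 CPM in the bursa and from 12.7 to 68.6 CPM in the seminal receptacle. Its difference was -3.21 ± 0.53 (adjusted p = 0.00342), and that of CecA1 was -2.90. Among the peptidoglycan recognition proteins, a separate list, it was -2.63 for PGRP-SD and -1.83 for PGRP-SA. PGRP-LB went the other way (1.07), as it did against the spermathecae (1.62 ± 0.24, adjusted p = 0.0018). Against the spermathecae PGRP-SC2 had the largest gap of the immune genes named, with a change of 6.19 there and 2.63 in the seminal receptacle (-3.56). For Def and Listericin no difference was called in any of the 3 comparisons.

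Against the spermathecae, the other sperm storage organ, the difference was called for 9 of 53 nucleolar genes tested, all more upward in the seminal receptacle, beside 1.4% of all genes. The median difference was 0.84 on the log2 scale, against 0.03 for all genes. Fib averaged 14.9 and 44.4 CPM in the seminal receptacle and 40.8 and 39.5 CPM in the spermathecae (1.68 ± 0.38, adjusted p = 0.0348), nop5 differed by 1.74 ± 0.27 (adjusted p = 0.00338) and Nop56 by 1.54 ± 0.32 (adjusted p = 0.0235). These 3 genes started lower in the unmated seminal receptacle and reached about the level of the spermathecae. The chaperonin subunits CCT7 (0.97) and CCT8 (1.24) and the host genes Uhg2 (1.63) and Uhg8 (1.41) differed in the same direction. In the bursa Fib rose more than in the seminal receptacle (-1.66). The smallest p-values were for CG6928 (-2.80), CG33099 (2.5), Jhbp14, of a family of juvenile hormone binding proteins (2.05), PGRP-SC2, and Sod3, an extracellular superoxide dismutase (-1.87). With run 2 alone these comparisons gave 1, 6 and 3 calls for the bursa, oviduct and spermathecae.

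**Figure D5:**
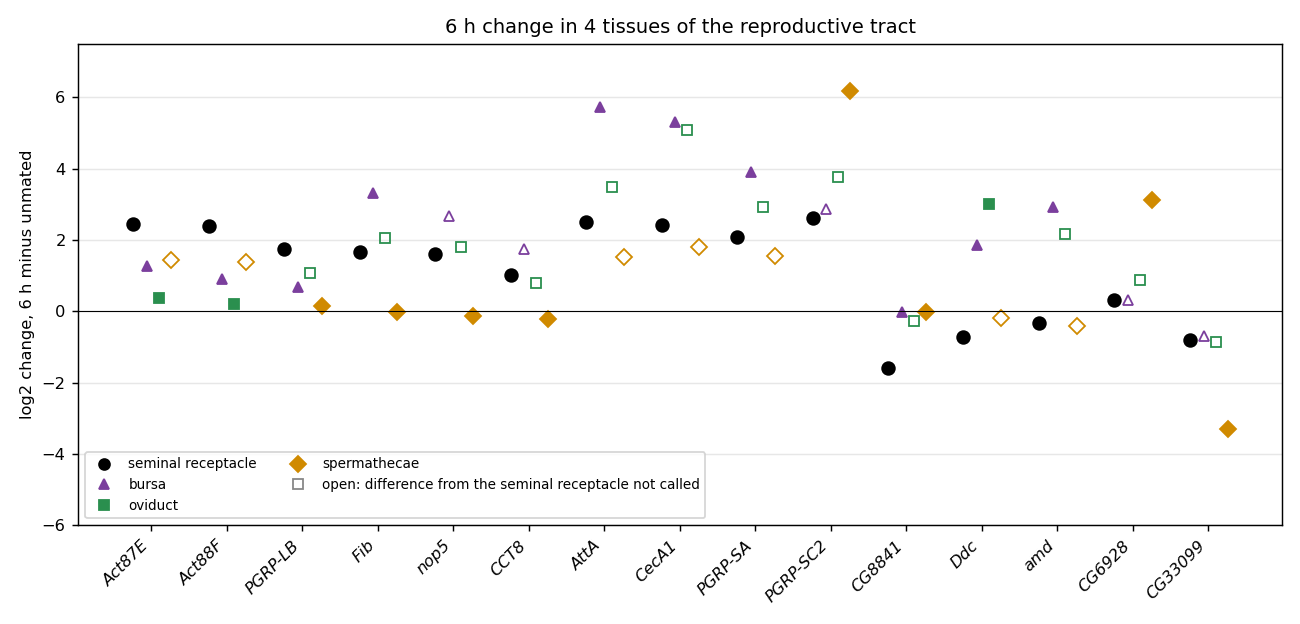
The log2 change from unmated to 6 h is plotted for 15 genes in the seminal receptacle (black), bursa, oviduct and spermathecae, filled where the difference from the seminal receptacle was called. Act87E and Act88F lie highest in the seminal receptacle, with no difference called against the spermathecae. Attacin, cecropin and Ddc values lie higher in the bursa or oviduct, and Fib, nop5 and CCT8 lie near 0 in the spermathecae.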

How the data were processed

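RNA sequencing read counts per gene were analysed for the seminal receptacle, with the bursa, oviduct and spermathecae for comparison. The authors sequenced 50-base single-end reads, mapped them to FlyBase release 6.21 with HISAT2 2.1.0 and used StringTie to count reads for each gene. The deposited table held those counts unscaled although it is named for CPM, since all values were whole numbers and library totals differed. The table was therefore tested as counts. Analyses used edgeR 4.0.16, limma 3.58.1 and DESeq2 1.42.0 in R 4.3.3 and matplotlib 3.10.9 in Python 3.11.15. Gene identifiers were matched to the BDGP6.54 annotation, where 17624 of 17752 were found.

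Genes over 2 CPM in at least 2 libraries of 1 seminal receptacle time point were tested. The quasi-likelihood test of edgeR was fitted to all 10 seminal receptacle libraries (TMM factors, time and sequencing run), so that the 24 h libraries shared the estimate of the spread (biological coefficient of variation 0.298). Differences between tissues were tested as interaction contrasts with the run within each tissue, over all libraries of both tissues. P-values were adjusted by Benjamini-Hochberg over all genes of each test, and a gene was called at 0.05. Total counts of 23608897 to 26168275 in the 7 libraries compared made the spread between pools, and not counting error, the limit for all but rare transcripts; the floor for Obp56e covers counting error only. No 2 of the seminal receptacle libraries held identical counts. The tests were checked on simulated counts.

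Named genes were the 12 largest rises and falls among called genes without overlap whose higher group averaged at least 10 CPM, the 6 smallest p-values and the 6 largest changes of CPM in each direction, members of the described lists, and the 5 smallest p-values of each tissue comparison. The values of 1 gene that the rule names are not reported here. The 35 gene lists, the rule and the families were chosen with earlier results of these data known, and 7 families were formed after the values had been seen. From the lists, 2 entries were removed as wrongly assigned once the annotation had been read. In 6 groups the replicate numbers of the columns did not match the sample labels, and 16 columns were therefore mapped to a group and run without a sample. Alternatives were other normalizations, filters and tools, the model without the run, each run alone (run 1 added after the data had been seen), the 7 libraries alone, leaving out the mitochondrial genome, and leaving out each library.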

Additional observations from a re-analysis of the deposited data

Results flagged for a closer look

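Among 122 genes checked, 5 had 1 of the 4 libraries of 6 h far from the other 3, with a gap to the nearest library of 0.925 of the group's range for CG13856, 0.883 for CG18268, 0.909 for SP1029, 0.85 for Obp56e and 0.831 for bys. Chance gives about 1 in 20 groups. In CG13856 and CG18268 it was the first library of run 1 that was higher, at 4.38 and 9.17 CPM, in SP1029 a library of run 2 that was lower by about 1 CPM at 12.4 CPM, in Obp56e the first library of run 2, at 6.23 CPM, and in bys, a nucleolar gene, the second library of run 1, at 29.3 CPM. None of the summed levels of the 35 lists had such a library.

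The 6 h change differed between the seminal receptacle and the bursa for 22 named genes, given here as the log2 change in the seminal receptacle minus that in the bursa. It was more positive in the seminal receptacle for NimC2 (4.63), Act88F (1.48), Treh (1.20), Act87E (1.18) and PGRP-LB (1.07). NimC2 averaged 0.359 CPM in unmated bursa and was at 0 there at 6 h, so that its fitted difference depends on the prior count and is no bound. It was more negative in the seminal receptacle for CG14397 (-4.29), amd (-3.27), AttA (-3.21), CecA1 (-2.90), AttB (-2.85), PGRP-SD (-2.63), Ddc (-2.56), CG6891 (-2.36), CG4269 (-2.31), CG12268 (-1.92), CecA2 (-1.86), PGRP-SA (-1.83), Fib (-1.66), CG8841 (-1.58), Socs36E (-1.48), CG32409 (-1.03) and Surf6 (-0.88). Of these, Ddc, amd, CG14397 and CG8841 had a negative change in the seminal receptacle, and the others with a negative difference rose in both tissues by their fitted changes.

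Against the oviduct the same difference was called for 7 named genes, with tfc (2.88), Act88F (2.20) and Act87E (2.09) more positive in the seminal receptacle and Ddc (-3.69), CecA2 (-2.90), hdly (-2.48) and CG10337 (-2.20) more negative.

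Against the spermathecae it was called for 25 named genes. Immune genes and inhibitors were PGRP-LB (1.62), Spn27A (1.44) and PGRP-SC2 (-3.56). Genes of the nucleolus and ribosome production were all more positive in the seminal receptacle: nop5 (1.74), Fib (1.68), Uhg2 (1.63), Nop56 (1.54), Uhg8 (1.41), RpLP0-like (1.23), CG30349 (1.02), CG9799 (1.01), CG8939 (1.00), FBgn0284251 (0.96) and pit (0.86). So were CG33099 (2.5), Jhbp14 (2.05), the chaperonin subunits CCT8 (1.24) and CCT7 (0.97) and the small heat shock gene CG14207 (0.90). The difference was negative for CG6928 (-2.80), CG18268 (-2.19), Sod3 (-1.87), Cyp6a23 (-1.62), CG8841 (-1.59) and Sclp (-1.47).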

How the results depend on the processing

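The 302 genes called at 6 h postmating were 78 without the run in the model, 5 in run 2 alone (2 against 2 libraries), 146 in run 1 alone, 851 with DESeq2 and 9 at a Bonferroni-adjusted p of 0.01, and from 55 to 439 without 1 library. With the 7 libraries alone, DESeq2 size factors, library size alone, limma-voom, stricter and looser filters or the mitochondrial genome left out, the number ran from 228 to 364, and the share that was higher from 67.3% to 74.6% against 68.5%. No called gene with a value changed sign in any of the 18 refits, which held from 260 to 302 of the 302. The refits reused libraries that gave the calls, so the shared sign is not separate evidence. The 12 genes called at 24 h were 4 without the run and 3 with Bonferroni. The differences called against the bursa, oviduct and spermathecae were 46, 4 and 30 without the run, 11, 2 and 7 with Bonferroni, and 1, 6 and 3 in run 2 alone, and stayed within 1.5 times the count with DESeq2 size factors. Of the 122 genes named or listed, 104 had the same call with all genes of at least 1 count, 97 with library size alone and 47 without the run. The test of run 1 alone was chosen after seeing the data. It rests on 1 unmated library, taken to vary like the others, and its calls were 58 higher and 88 lower. There the log2 change of DptB, which was not called, turned to -0.07. Each removal of an unmated library left 1 run with a single unmated library or none, with fewer samples in the fit. Genes of a few counts per library, such as Obp56e and GstD5, are limited by depth. No paired analysis was possible because the replicate numbers of the unmated and 24 h columns did not match those of the sample labels, so a replicate number could not be tied to a sample.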

Other observations

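Genes outside the lists were called as well, and those named in this section were picked after their values had been seen. CaBP1, a protein disulfide isomerase, read 98.5, 102 and 111 CPM unmated and 286, 381, 208 and 206 CPM at 6 h (log2 change 1.28 ± 0.22, adjusted p = 0.0152). Der-1, a Derlin of the pathway that removes misfolded proteins, read 50, 75.7 and 58.4 CPM unmated and 97.3, 130, 145 and 139 CPM at 6 h (1.11). Both lay above unmated in every postmating library, as did the cochaperone genes P58IPK (1.03), shv (1.07) and Sil1 (1.11). The list of 45 genes of the secretory pathway and unfolded protein response held no called member and had a median log2 change of 0.22. Of the 7 fits without 1 library, CaBP1 kept its call in 5, Der-1 in 4, shv in 3, Sil1 in 2 and P58IPK in 1. At 24 h the log2 changes were -0.24 for CaBP1, 0.22 for Der-1, -0.29 for P58IPK and -0.02 for shv.

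Vinc, vinculin, which links actin filaments to adhesion sites, read 196, 143 and 151 CPM unmated and 478, 494, 243 and 291 CPM at 6 h (1.05), and coro, coronin, an actin-binding protein, read 132, 165 and 112 CPM unmated and 353, 300, 274 and 261 CPM at 6 h (1.14). The regulatory light chain of nonmuscle myosin sqh (0.89), parvin (0.91), Myo31DF (0.82) and Arp3 (0.64) were called with smaller changes. Of the 7 fits without 1 library, Vinc kept its call in 3, sqh in 2 and each of coro, parvin, Myo31DF and Arp3 in 1. In Vinc the postmating libraries of run 1 were the highest, whereas in sqh they ranged from 297 to 395 CPM over both runs.

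AsnS, asparagine synthetase, rose from 23.2, 34.3 and 26.1 CPM to 57.7, 67.4, 110 and 81.9 CPM (1.55), and its 24 h change was 0.04. Sodh2, sorbitol dehydrogenase, went from 161, 292 and 246 CPM to 44.9, 77.1, 127 and 129 CPM (-1.22), with every postmating library below every unmated library and the libraries of run 1 the lowest in each group.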
